A study of Rattus norvegicus with 6 samples.

Results

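C-type lectin and killer receptor genes were examined in the thoracic aorta of hypertensive and control rats. The members are the genes that the platform annotation names, as the only gene of a probe set, by a symbol starting Clec, Klr or Ly49, with Clec14a left out. They number 60 of 18166 genes named in this way, and each has 1 of the table's probe sets. The group was chosen by a result of these data, the strain difference of Clec2gl1, so the strain differences below are a description, and nothing is drawn from whether Clec2gl1 passed. The spontaneously hypertensive rat (SHR) is inbred for raised blood pressure, and the Wistar-Kyoto rat (WKY) is the related normotensive strain used as its control. The rats of both strains were 24 weeks old and received no treatment before the thoracic aorta was taken. RNA was measured on 3 arrays per strain, and a level is the log2 value of a probe set, a group of short probes that report 1 transcript. Whether the 3 arrays of a strain came from separate animals is not stated, and a p-value then reflects the spread of these arrays alone, which may be technical.

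C-type lectin receptors are membrane or secreted proteins that share a fold first known from sugar-binding lectins. In rodents most of them lie in a large cluster called the natural killer gene complex. The killer cell receptors of the Klr and Ly49 families sit on natural killer cells and some T cells, bind MHC class I or related proteins, and either restrain or trigger killing. The Clec2 proteins are ligands for the Nkrp1 receptors, which the Klrb1 genes encode, and are known from many tissues. The myeloid lectins, such as Dectin-1 (Clec7a), sense microbial sugars or damaged cells on macrophages and dendritic cells.

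The RNA came from aortae rich in smooth muscle: Myh11 (smooth muscle myosin) lay between 10.65 and 10.90 and Tagln (transgelin) between 11.24 and 11.61 on the 6 arrays. The middle probe set of an array had a level of 2.29 to 2.52. WKY replicate 3 had the highest of these medians and the narrowest spread (SD 2.12 over probe sets, against 2.22 to 2.27 on the others). Of the 60 members, 46 had a mean level below 2.29, the lowest array median, and 14 a mean above 2.52, the highest. Over all 28879 probe sets these counts were 14166 and 13781. The table holds no call of presence, so a member near or under the medians has a level that is not shown to lie above background. A tested probe set is 1 whose mean over the 6 arrays reached the 25th percentile of the table, a level of 1.17; 27 members were tested and 33 were not.

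Clec2gl1 had the greatest strain difference in the Clec2 group, and Clec2g is its nearest namesake, whose strains overlapped. Olr1 is the other gene of the killer gene complex that passed, and Clec11a had the next smallest p among the members. For these reasons the 250 bases before the start of these 4 genes are shown. They are RefSeq sequence of the GRCr8 build, 5′ to 3′ in the direction of the gene: chr4:163992121-163992370 on the plus strand for Clec2gl1, chr4:164303643-164303892 on the plus strand for Clec2g, chr4:164634548-164634797 on the minus strand for Olr1 and chr1:103941171-103941420 on the minus strand for Clec11a. Capitals mark matches to 1 of the 6 motifs searched, named below the sequences.
Clec2gl1: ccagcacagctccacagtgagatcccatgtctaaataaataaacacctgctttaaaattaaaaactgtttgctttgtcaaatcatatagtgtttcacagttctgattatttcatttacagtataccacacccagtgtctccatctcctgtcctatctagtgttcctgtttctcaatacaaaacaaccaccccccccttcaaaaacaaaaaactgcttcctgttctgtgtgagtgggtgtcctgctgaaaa
Clec2g: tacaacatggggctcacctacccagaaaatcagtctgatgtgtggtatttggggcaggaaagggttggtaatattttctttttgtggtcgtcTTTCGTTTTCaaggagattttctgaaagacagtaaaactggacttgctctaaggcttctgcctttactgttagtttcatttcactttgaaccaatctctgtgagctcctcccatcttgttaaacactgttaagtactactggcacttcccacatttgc
Olr1: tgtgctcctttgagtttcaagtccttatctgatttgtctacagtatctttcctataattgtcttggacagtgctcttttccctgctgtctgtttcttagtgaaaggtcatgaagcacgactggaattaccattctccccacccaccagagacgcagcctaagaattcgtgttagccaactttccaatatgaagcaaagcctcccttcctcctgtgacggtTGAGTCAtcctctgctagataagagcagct
Clec11a: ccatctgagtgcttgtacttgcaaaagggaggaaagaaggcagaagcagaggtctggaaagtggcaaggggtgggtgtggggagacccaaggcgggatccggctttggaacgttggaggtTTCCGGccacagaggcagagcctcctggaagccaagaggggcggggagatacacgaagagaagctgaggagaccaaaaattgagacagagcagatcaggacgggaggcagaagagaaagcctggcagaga

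The motifs, searched on both strands, were the TATA box (TATAAA), the AP-1 site (TGANTCA), the interferon response element, the ETS core (CCGGAA), the CArG box and the NF-kB site. The window of Clec2gl1 held none of these letters. That of Clec2g held the interferon response element, beginning 158 bases before the start, which occurs in 3.41% of 33465 RefSeq windows of this length. Olr1 held an AP-1 site 30 bases before the start (6.34% of windows) and Clec11a an ETS core 130 bases before it (12.6%). Of the 60 members, 49 had a window, and 6 of these 49 (12.2%) held the interferon response element: Clec2g, Klrk1, Klrc2, Klra5, Clec4d and Clec4m. A TATA box was found in 9 of the 49 windows (18.4%, against 12.9% of all windows), an AP-1 site in 2, an NF-kB site in 2, an ETS core in 3 and a CArG box in 0. In a global alignment the Clec2gl1 window matched that of Clec2d at 54.2% of aligned positions, that of Clec2dl1 at 50.4% and that of Clec2g at 49.3%. By alignment score these ranked 10, 2601 and 4208 among 33464 other windows, of which that of Snrpd3l1 ranked first with 56.2%.

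Clec2gl1, a Clec2 gene named for its likeness to Clec2g, was the member with the greatest strain difference. Its level was 3.80, 4.33 and 4.56 in SHR and 1.96, 1.86 and 1.50 in WKY, values being given here and below in the order of replicates 1, 2 and 3. Every SHR array lay above its own array median and every WKY array below, and the strains did not overlap. The means were 4.23 ± 0.39 (SD, n = 3) in SHR and 1.77 ± 0.24 in WKY, a difference between measured levels of 2.46 ± 0.23 (SE) on the log2 scale. Since the WKY level is not shown to lie above background, this is not an estimate of a fold in RNA. Clec2gl1 was the 1 member of the 27 tested that passed (limma, adjusted p under 0.05 over all tested probe sets), where 0.0693% of all tested probe sets did and 0.06% passed as higher and 0.00923% as lower in SHR; since this contrast led to the choice of the group, nothing is read from that count. With any 1 array left out the difference stayed between 2.29 and 2.67. The gene still passed when SHR replicate 1 was left out (2.67) and when WKY replicate 3 was left out along with it (2.54). The call ended when the array left out was SHR replicate 2 (2.40) or 3 (2.29) or WKY replicate 1 (2.55), 2 (2.50) or 3 (2.32), with fewer arrays in each of these fits. A further quantile normalization also ended it (2.46, limma adjusted p = 0.057), as did a fit with replicate number as a further term (2.46, limma adjusted p = 0.116). It rests on 1 probe set.

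Of the other 10 Clec2 genes 6 were tested and 0 passed, and in 0 of the 10 did the strains separate, where 0.0693% of tested probe sets passed and 11.1% of all probe sets were separated in either direction. Clec2g, the nearest namesake, gave 7.04, 6.27 and 5.75 in SHR and 6.26, 6.22 and 6.30 in WKY. Its WKY arrays agreed closely and its SHR arrays fell on both sides of them, so that the difference of 0.09 ± 0.31 (SE; limma adjusted p = 0.975) was smaller than the spread within SHR. Clec2d, which encodes a ligand of the Nkrp1 receptors, gave 2.16, 2.06 and 1.95 in SHR and 2.05, 1.86 and 2.10 in WKY. Its neighbour Clec2dl1 gave 2.36, 1.94 and 2.06 against 1.53, 1.73 and 2.57. For both genes the arrays of the strains were intermingled and near or below the array medians.

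Clec2e gave 1.65, 1.66 and 1.78 in SHR and 1.77, 1.73 and 2.37 in WKY, where WKY replicate 3 stood apart. Clec2d2 gave 1.15, 2.20 and 0.85 against 1.18, 0.92 and 1.33, with SHR replicate 2 alone high. Clec2l, which lies outside the killer gene complex and is known from brain, gave 3.12, 2.38 and 2.63 against 2.67, 2.40 and 3.06, a range that the strains shared.

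The remaining 4 Clec2 genes were too dim to be tested. Clec2d2l2 gave 0.59, 0.85 and 1.05 in SHR and 1.08, 1.05 and 2.00 in WKY, its highest value being that of WKY replicate 3, and the strains touched at 1.05. Clec2d2l3 gave 0.80, 1.04 and 1.16 against 0.72, 0.62 and 1.18. Clec2d2l1 gave 0.95, 0.97 and 0.69 against 0.53, 0.75 and 0.94, and Clec2ml1 0.65, 1.08 and 0.76 against 0.98, 0.96 and 1.03. These levels lie far under the array medians in both strains. Over the 10 Clec2 genes other than Clec2gl1 the median difference was 0.07, beside -0.01 over all probe sets. The Clec2 genes are close relatives, and how far the probes of one also bind RNA of another was not tested, since no probe sequence was used here.

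**Figure D1:**
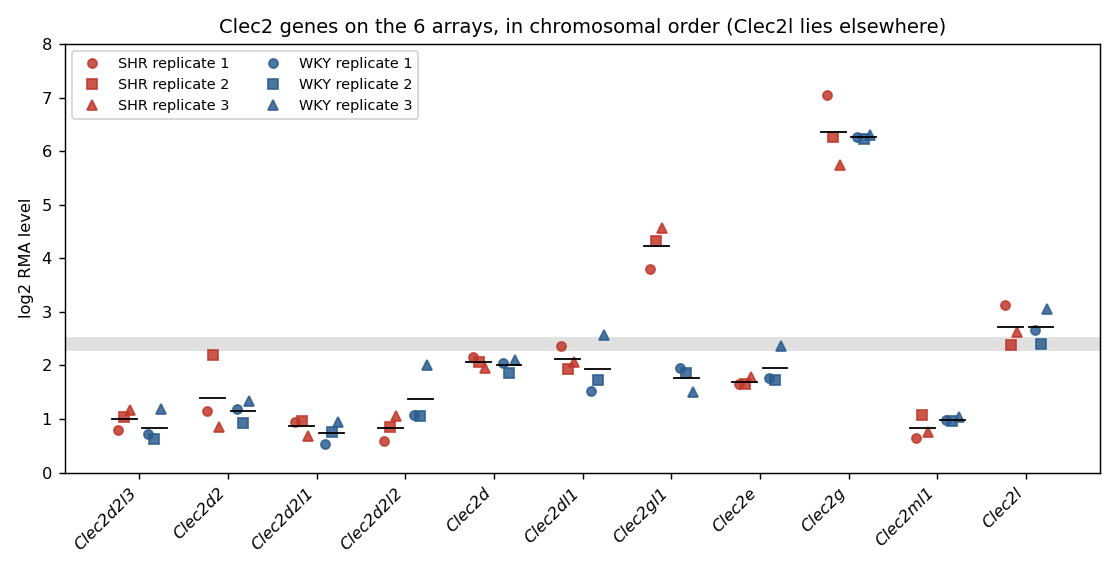
Log2 level of the 11 Clec2 genes on each of the 6 arrays (red SHR, blue WKY; marker shape gives the replicate, black bars are means of 3 arrays, and the grey band spans the array medians, 2.29 to 2.52). The SHR and WKY points of Clec2gl1 lie on opposite sides of the band, while those of the other 10 genes overlap; levels of different genes are not comparable with each other.

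Clec2gl1 lies on chromosome 4 within the killer gene complex. In the RefSeq order of genes it stands between Clec2dl1 on one side and Klrb1 on the other among genes with a named probe set. The 10 nearest such genes on each side comprised 14 members and 6 other genes. Of the latter, Cd69, the early activation lectin of lymphocytes, gave 1.21, 1.25 and 1.44 in SHR and 1.24, 0.95 and 1.79 in WKY. Fkbp4, a co-chaperone, lay at 7.09, 6.61 and 6.21 in SHR and 6.85, 6.44 and 6.40 in WKY. None of these 20 neighbours showed strains that did not overlap, where 11.1% of all probe sets in the table did. Of the 13 neighbours tested 0 passed in limma, with 0 at an unadjusted p under 0.05 (5.55% of all tested probe sets), and the differences of the 20 ran from -0.54 (Clec2d2l2) to 0.31 (Itfg2). The nearest of the 20 on each side, Clec2dl1 and Klrb1, differed by 0.17 and -0.07. Klrb1 lies 5 genes away in the RefSeq order and was too dim to be tested.

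The complex was followed from Clec2d2l3 to Klra2, a stretch of 83 genes in the RefSeq table, of which 47 had a named probe set. Of these 47, 41 were members and 6 were other genes. A second gene of the stretch passed, Olr1, the lectin-like receptor for oxidised low-density lipoprotein, which lies next to Clec7a in this order. Olr1 gave 5.20, 4.80 and 4.94 in SHR and 1.72, 1.66 and 1.49 in WKY. Gabarapl1, a gene of autophagy, gave 6.83, 6.83 and 6.90 against 6.31, 6.38 and 6.76 and did not pass (limma adjusted p = 0.921). Around these 2 passing genes most differences were small: over the 41 members, Clec2gl1 included, the median difference was 0.06. Strains did not overlap for 6 of the 47 genes, all higher in SHR, where 5.68% of all probe sets were separated in this direction. They were Clec2gl1, Olr1, Gabarapl1, Ly49si1l1, Ly49i7 and Klra5. Of these, Clec2gl1 and Ly49si1l1 were known from earlier results before the group was formed. The plot of differences along the complex shows Clec2gl1 and Olr1 standing apart.

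**Figure D2:**
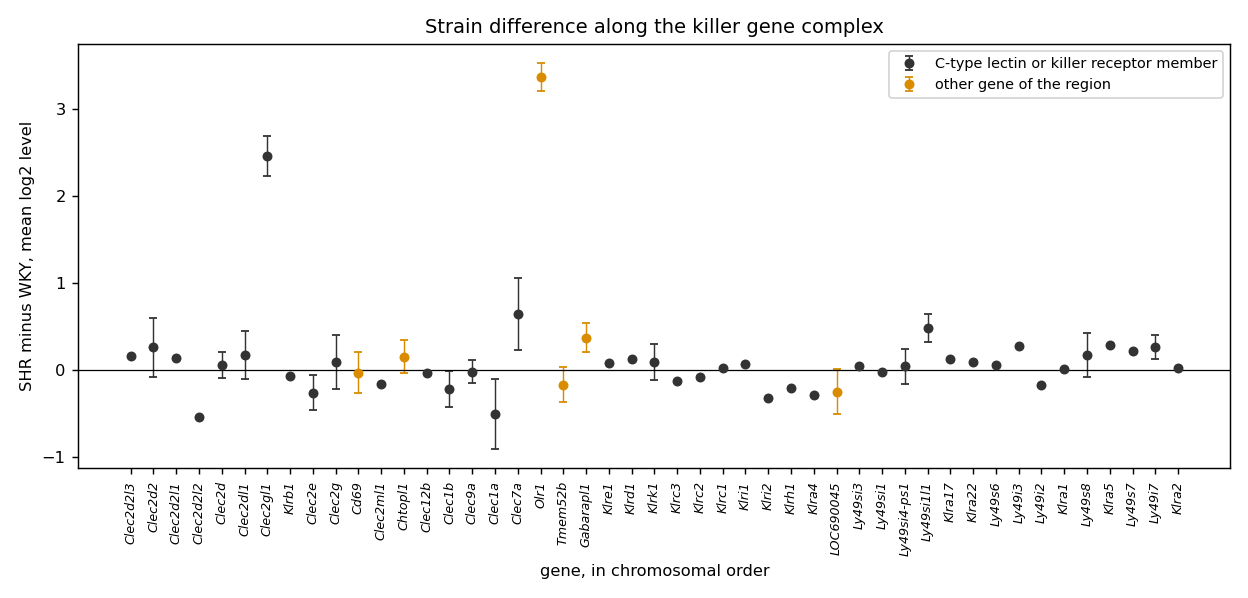
SHR minus WKY difference in mean log2 level for the 47 named genes of the killer gene complex in chromosomal order (black, members; orange, the 6 other genes; bars are the SE of the limma fit, given for tested genes). Clec2gl1 at 2.46 and Olr1 at 3.36 stand above all the rest, which lie between -0.54 and 0.64.

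The killer receptors proper were dim in both strains. Outside the Ly49 group, 12 members encode such receptors: 3 were tested and 0 passed, where 0.0693% of all tested probe sets did. Of the 12, 10 had means below the lowest array median, as had 14166 of all 28879 probe sets. The differences of the 12 ran from -0.32 (Klri2) to 0.15 (Klrg1), with a median of -0.03. Klrg1, an inhibitory receptor that binds cadherins, gave 2.10, 3.24 and 3.0 in SHR and 2.68, 2.61 and 2.60 in WKY. Its SHR arrays lay on both sides of the tight WKY arrays. Klrg2, its less studied relative, gave 3.35, 3.22 and 3.04 against 3.32, 3.30 and 3.51, and the strains overlapped.

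Klrk1, which encodes the activating receptor NKG2D, gave 1.99, 1.83 and 1.29 in SHR and 1.75, 1.62 and 1.46 in WKY. Klrd1, which encodes CD94, the shared partner of the NKG2 receptors, gave 1.13, 1.08 and 1.39 against 1.15, 1.0 and 1.10. The inhibitory Klrc1 (NKG2A) gave 1.20, 1.03 and 0.97 against 1.03, 1.06 and 1.06. All values of these 3 genes lay below the array medians, and no strain difference stood out from the spread between arrays. Klrb1, whose family encodes the receptors for Clec2 proteins, gave 0.95, 0.95 and 0.72 in SHR and 0.93, 0.95 and 0.97 in WKY, all far below the array medians and with strains that overlapped. The other members of this set, Klrc2, Klrc3, Klre1, Klrh1, Klri1 and Klri2, had mean levels from 0.68 to 0.91.

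Most natural killer and T cell markers were dim as well. Of 17 natural killer cell markers measured, 11 had means below the lowest array median, and their mean level was 1.93 to 2.08 on the SHR arrays and 1.91 to 2.17 on the WKY arrays. Gzmm, Eomes, Xcl1, Ccl5 and Cd7 had means above the highest array median. The defining receptor gene Ncr1 (NKp46) gave 1.56, 1.45 and 1.71 in SHR and 1.68, 1.47 and 1.81 in WKY, and the pore protein gene Prf1 gave 1.72, 1.37 and 1.47 against 1.80, 1.74 and 1.47. Tbx21, with the smallest p of the 13 tested, gave 1.88, 1.82 and 2.08 against 2.25, 2.41 and 3.02 (limma adjusted p = 0.819). Strains did not overlap for 2 markers lower in SHR (Tbx21 and Ncr3) and 1 higher (Txk). Over all probe sets 11.1% were separated in either direction. Of 15 T cell markers 12 had means below the lowest array median, among them Cd3e and Cd3g, and 3 (Cd4, Cd5 and Cd247) had means above the highest array median. Cd4, which macrophages of the rat also carry, gave 7.54, 5.64 and 4.73 in SHR and 6.33, 5.76 and 4.92 in WKY. The mean of the 15 was 1.86 to 2.17 in SHR and 1.96 to 2.01 in WKY. None of the 13 natural killer and 13 T cell markers tested passed, where 0.0693% of all tested probe sets did, so nothing is read from that count. The part of these cells in the difference of Clec2gl1 was not tested. In bulk tissue, fewer cells of a type and less RNA per cell cannot be told apart.

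The Ly49 group holds 16 members, which encode the lectin-like receptors for MHC class I that rodents use in place of the human KIR family. Only 4 were tested and 0 passed, where 0.0693% of all tested probe sets did. Of the 16, 15 had means below the lowest array median. Ly49si1l1, classed as a long non-coding RNA, gave 2.39, 2.27 and 2.52 in SHR and 2.09, 1.96 and 1.70 in WKY. Its strains did not overlap, at a difference of 0.48 ± 0.16 (SE), and it did not pass (limma adjusted p = 0.795). Ly49i7 gave 1.30, 1.54 and 1.31 against 1.11, 1.19 and 1.06, likewise without overlap and without passing (0.26 ± 0.14, limma adjusted p = 0.923). Klra5, too dim to be tested, gave 0.88, 0.81 and 0.88 against 0.63, 0.67 and 0.40.

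These 3 genes were higher on all SHR arrays, a share of 3 in 16 where 5.68% of all probe sets were separated in this direction. Ly49si1l1 was known from earlier results before the group was formed, so nothing is drawn from this share. Of the 16 Ly49 members 13 had a difference above 0, and 10 without SHR replicate 1, where 47.4% and 50.5% of all probe sets did. The median over the 16 was 0.08, beside -0.01 over all probe sets. Ly49s8 gave 1.61, 2.41 and 1.59 in SHR and 1.74, 1.84 and 1.52 in WKY, with SHR replicate 2 alone high. The pseudogene Ly49si4-ps1 gave 2.68, 2.69 and 2.29 against 2.22, 2.54 and 2.77. Klra2, with a mean of 1.16, was the brightest member that missed the level needed for testing, and Clec1b, with a mean of 1.20, the dimmest that reached it. Klra2 gave 1.52, 1.0 and 0.98 in SHR and 1.25, 1.07 and 1.13 in WKY. The remaining 10 Ly49 members had mean levels from 0.38 (Ly49i2) to 1.07 (Ly49si1). The Ly49 genes are also near copies of each other, so a probe set may report more than 1 of them.

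**Figure D3:**
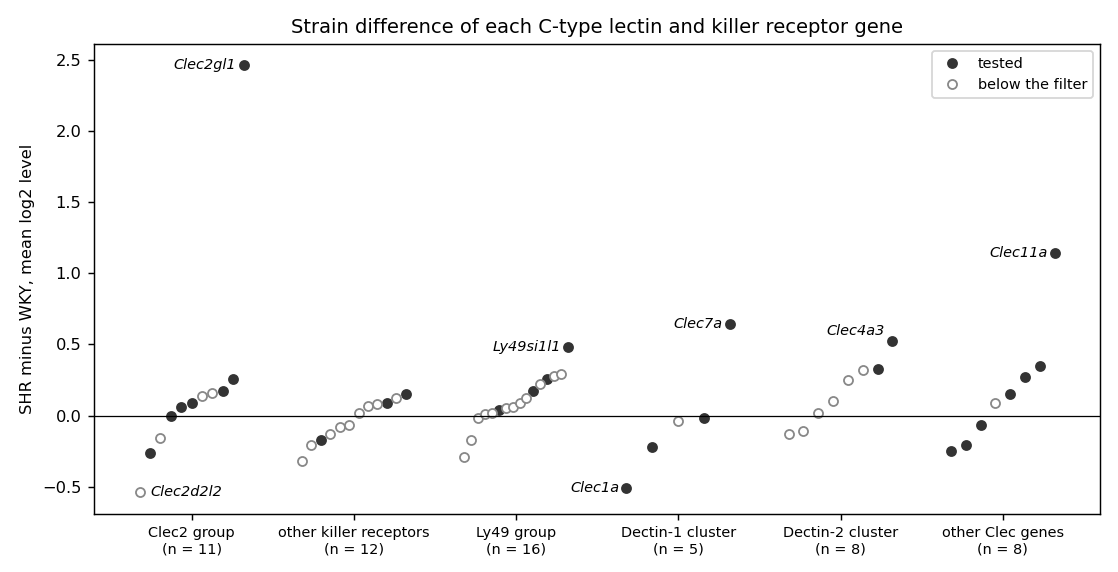
SHR minus WKY difference in mean log2 level for each of the 60 members, by role (filled, the 27 tested; open, the 33 below the level needed for testing). Clec2gl1 (2.46) and Clec11a (1.14) stand above all other members, which lie between -0.54 and 0.64.

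The brighter myeloid lectins varied more between arrays of a strain than between strains. Clec7a, which encodes the beta-glucan receptor Dectin-1, gave 4.69, 3.85 and 3.06 in SHR and 3.37, 3.57 and 2.75 in WKY. The difference of 0.64 ± 0.41 (SE; limma adjusted p = 0.923) was smaller than the SHR spread (SD 0.82), and it was -0.02 without both SHR replicate 1 and WKY replicate 3. Clec4a1 and Clec4a3 encode receptors of the Dectin-2 cluster related to the inhibitory receptor DCIR. Clec4a1 gave 4.46, 3.0 and 2.94 in SHR and 3.46, 3.0 and 2.95 in WKY. Clec4a3 gave 4.09, 2.71 and 1.71 against 2.86, 2.15 and 1.95. Clec10a, the galactose-type lectin of macrophages, gave 4.85, 3.52 and 3.18 against 4.29, 3.53 and 4.36.

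All 4 of these genes were highest on SHR replicate 1, and within SHR each was lowest on SHR replicate 3, as the mean of the macrophage markers also was. The mean of 14 macrophage markers was 5.19, 4.03 and 3.32 in SHR and 4.57, 3.83 and 3.99 in WKY. Of the 14, 0 passed, where 0.0693% of all tested probe sets did. The mean of 8 white adipocyte markers was likewise highest on SHR replicate 1 and lowest on SHR replicate 3, at 7.67, 5.67 and 4.03, and lay at 7.37, 5.97 and 6.06 in WKY. Their part in the spread of the myeloid lectins was not tested. In each strain both the macrophage and the adipocyte mean were highest on replicate 1. Clec2gl1 was lowest on replicate 1 within SHR (3.80, 4.33 and 4.56) and highest on replicate 1 within WKY (1.96, 1.86 and 1.50). Leaving out SHR replicate 1, its lowest SHR value, necessarily raised its difference, to 2.67. The part of these cells in the levels of Clec2gl1 was not tested. The likeness of these levels over 6 arrays is a description only.

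**Figure D4:**
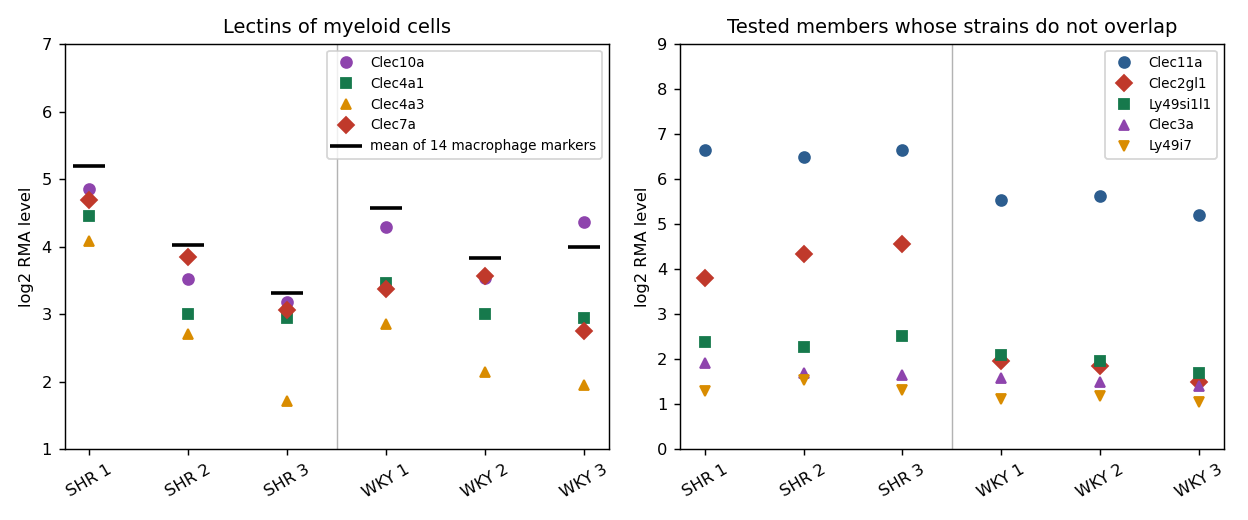
Log2 levels on each of the 6 arrays (left, 4 lectins of myeloid cells with the mean of 14 macrophage markers as a black bar; right, the 5 tested members whose strains do not overlap). The 4 lectins and the marker mean are highest on SHR replicate 1. For each gene on the right all SHR points lie above all WKY points, which was fixed by the choice of these 5 genes.

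Clec1a, a lectin-like receptor known from endothelium and dendritic cells, leaned the other way, at 3.47, 2.21 and 2.19 in SHR and 3.40, 3.45 and 2.56 in WKY. SHR replicate 1 lay with the higher WKY arrays and WKY replicate 3 near the lower SHR arrays, so the strains overlapped (-0.51 ± 0.40, limma adjusted p = 0.923). Without both SHR replicate 1 and WKY replicate 3 the difference was -1.22 and passed narrowly (limma adjusted p = 0.0499), with 2 arrays left in each strain; over the other alternatives its adjusted p ran from 0.329 to 0.993. The mean of 7 endothelial markers was 6.19, 4.91 and 4.31 in SHR and 6.02, 5.50 and 5.13 in WKY, and its part in the Clec1a levels was not tested. Clec1b, the podoplanin receptor of platelets, gave 1.47, 1.10 and 0.72 against 1.38, 1.40 and 1.16. Clec9a, a dendritic cell receptor for exposed actin filaments, gave 1.68, 1.67 and 1.70 against 1.71, 1.75 and 1.66, with hardly any spread and no level above the array medians. Clec12b had a mean of 0.86.

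In the Dectin-2 cluster only Clec4a1 and Clec4a3 were bright enough to be tested. The other 6 members, Clec4a, Clec4a2, Clec4b2, Clec4d, Clec4e (Mincle, a sensor of mycobacterial glycolipid) and the pseudogene Clec6a-ps1, had mean levels from 0.63 to 1.06 in this tissue. Over the 8 members the median difference was 0.17, with 6 above 0 and 2 below, and 4 above and 4 below without SHR replicate 1. Of all probe sets 47.4% and 50.5% were above 0 in these settings. In 0 of the 8 did the strains separate, beside 11.1% of all probe sets.

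Among the 8 remaining Clec genes, Clec11a separated the strains most clearly. Clec11a encodes a secreted growth factor, also called osteolectin, that acts on blood and bone progenitors rather than a receptor of immune cells. It gave 6.64, 6.50 and 6.64 in SHR and 5.53, 5.63 and 5.21 in WKY. The SHR arrays lay within 0.08 (SD) of their mean of 6.60 and the WKY arrays around 5.46 ± 0.22, all above the array medians and without overlap. The difference of 1.14 ± 0.16 (SE) did not pass over the whole table (limma adjusted p = 0.106). It passed in 1 alternative, with array weights (1.01, limma adjusted p = 0.0264), and over all alternatives its adjusted p ran from 0.0264 to 0.481 and its difference from 0.99 to 1.22.

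Clec3a, a lectin known from cartilage, gave 1.92, 1.69 and 1.66 in SHR and 1.58, 1.49 and 1.40 in WKY, all below the array medians and without overlap (0.27 ± 0.15, limma adjusted p = 0.923). Clec16a, which belongs here by its name and acts in endosomes and mitophagy, gave 4.59, 4.75 and 4.47 against 4.75, 4.79 and 4.47, with hardly any difference. Clec4f, the Kupffer cell receptor of the liver, gave 1.57, 1.58 and 1.76 against 1.64, 1.66 and 2.36, with WKY replicate 3 apart. Clec4g, known from liver endothelium, gave 2.46, 2.79 and 2.67 against 2.37, 2.55 and 2.55. Clec4m had 1 high array, SHR replicate 1 at 2.19, against 0.82 to 1.48 on the other 5, and Clec5a, an activating receptor of myeloid cells, had a mean of 1.14.

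Over all 60 members, 38 had a difference above 0 and 22 below, with a median of 0.07 beside -0.01 over all probe sets. Those above 0 were 63.3% of the members, beside 47.4% of all probe sets. This split depended on SHR replicate 1: without that array 29 were above and 31 below, with a median of -0.02. That was 48.3% of the members above 0, beside 50.5% of all probe sets. With WKY replicate 3 left out as well 32 were above and 28 below, which was 53.3%, beside 54.3% of all probe sets. The strains did not overlap for 6 members, all higher in SHR: Clec2gl1, Clec11a, Ly49si1l1, Ly49i7, Clec3a and Klra5. Among all probe sets 5.68% were separated with SHR higher and 5.41% with SHR lower. A share of 6 in 60 includes Clec2gl1 and Ly49si1l1, known from earlier results before the group was formed.

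The adaptors, kinases, phosphatases and ligands of these receptors, listed by role, included no gene that passed. Of 24 adaptors and kinases measured, 23 were tested and 0 passed, with 1 higher and 1 lower at an unadjusted limma p under 0.05, where 5.55% of all tested probe sets lay; their median difference was -0.05. Vav1, an exchange factor downstream of activating receptors, gave 2.66, 2.41 and 2.13 in SHR and 2.78, 2.87 and 3.04 in WKY (limma adjusted p = 0.842). Sh2d1b (EAT-2), an adaptor of natural killer cells, gave 2.16, 1.72 and 1.88 against 1.19, 1.49 and 1.59 (limma adjusted p = 0.853). In this list the strains did not overlap for 1 gene higher in SHR, Sh2d1b, and 2 lower, Vav1 and Cd247. Over all probe sets 5.68% were separated with SHR higher and 5.41% with SHR lower, and nothing is drawn from so few genes. Cd247 gave 2.62, 2.76 and 2.63 in SHR and 2.81, 2.82 and 3.18 in WKY (limma adjusted p = 0.923). Of the 4 phosphatases that inhibitory receptors recruit, 0 passed, and Ptpn6 (SHP-1) gave 5.16, 3.94 and 3.76 against 4.35, 4.29 and 4.23. Of 20 genes listed as ligands, 11 were measured, with Clec2d, Clec2g and Clec2l among them, and 0 of the 10 tested passed. The MHC class I genes RT1-A1, RT1-A2, RT1-CE1 and RT1-M3 had no probe set of 1 symbol, nor had Ulbp1, Ulbp2 and Ulbp3. The ligands were therefore covered only in part. RT1-S3, an MHC class Ib gene, gave 5.29, 3.85 and 3.50 in SHR and 5.57, 5.28 and 4.69 in WKY, with SHR replicate 1 among the WKY arrays (limma adjusted p = 0.923). Strains did not overlap for 1 ligand gene in each direction, where 11.1% of all probe sets were separated in either. Cdh4 was lower in SHR, at 2.64, 2.49 and 2.68 against 3.02, 2.85 and 2.90 (limma adjusted p = 0.906). Sf3b3 was higher, at 6.17, 6.14 and 6.05 against 5.89, 5.85 and 5.86 (limma adjusted p = 0.923). In the list of other genes with a lectin domain or from the same complex, 1 of 22 tested passed, which was Olr1. The lists were chosen with earlier results of these data known, so nothing is read from that count. Strains did not overlap for 3 genes of this list higher in SHR (Olr1, Gabarapl1 and Clec14a) and 2 lower (Thbd and Mbl2).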

How the data were processed

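RNA was measured on 6 Affymetrix Rat Gene 2.0 ST arrays, 3 for SHR and 3 for WKY, grouped by the sample titles. The authors deposited log2 values, 1 per probe set and array, that had gone through RMA (background correction, quantile normalization and median polish); the submitters' processing notes name Affymetrix Expression Console 1.2.1. The genome build is not given in the sources used here. Symbols came from the platform annotation: 18511 probe sets have 1 symbol, 575 several, and 9793 are not listed. Gene order and classes came from the RefSeq table of GRCr8, which held all 60 members.

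Probe sets with a mean at or above the 25th percentile (21659) were fitted with limma 3.58.1 in R 4.3.3, with strain as the only term, two-sided, with Benjamini-Hochberg adjustment over all of them. The fit was tested on simulated data. The members and lists were chosen with earlier results of these data known. Values on all arrays are given for Clec2gl1, the Clec2 genes, the 8 other members with the smallest p, the 8 brightest and the members at the filter; other members were named to describe their role groups after their values were seen. List genes without a probe set of 1 symbol were left out. The number of arrays limits the precision, and depth does not apply. Arrays also differed in how closely they followed the fit: limma array weights ran from 0.22 (WKY replicate 3) to 2.052 (SHR replicate 2). Whether replicate numbers pair the arrays is not stated. The correlations of same-numbered deviations from the strain means were 0.354, -0.079 and 0.228. Those of differently numbered arrays ran from -0.321 to 0.166. So few values cannot decide whether the arrays were paired, and a replicate block was run as an alternative.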

Additional observations from a re-analysis of the deposited data

How the results depend on the processing

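The difference of Clec2gl1 stayed between 2.29 and 2.67 in every alternative run. The number of members passing as higher in SHR was 1, and it was 2 with array weights (Clec2gl1 and Clec11a), 0 with a further quantile normalization and 0 with the replicate block (Clec2gl1 2.46, limma adjusted p = 0.116), and it ranged from 0 to 1 with 1 array left out. The number passing as lower was 0, and 1 (Clec1a) without both SHR replicate 1 and WKY replicate 3. Among all tested probe sets 13 passed as higher and 2 as lower. With array weights these were 48 and 17, with the replicate block 3 and 0, and without both arrays 39 and 76. The number lower was 1 with arrays centred on their median and 1 with no filter. With 1 array left out, the higher ranged from 2 to 5 and the lower were 0. Of 249 values of the 23 other named members over the alternatives, 246 moved by less than the SD between replicates. The other 3 were those of Clec3a (0.15), Clec7a (-0.02) and Clec1a (-1.22) without both arrays. Leaving out 1 array cannot move a difference by that SD, and the filter and replicate block settings do not change it. This count was therefore largely fixed by the design, and nothing is drawn from it. Of the 23 members, 13 kept the sign of their difference in every setting. The strain difference of the median probe set stayed between -0.02 and 0.04. The cause of these changes was not tested. Without a call of presence, signal near background limits what can be said of the dim members.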

Other observations

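Clec14a, the endothelial lectin left out of the group by its rule, gave 5.54, 5.43 and 5.45 in SHR and 5.27, 5.31 and 4.21 in WKY, where WKY replicate 3 stood apart (limma adjusted p = 0.923). The Nkrp1 receptor genes Klrb1a and Klrb1b share 2 probe sets that name both genes. Probe set 17795302 gave 1.09, 1.31 and 1.40 in SHR and 1.31, 1.25 and 1.41 in WKY, and probe set 17795311 gave 1.12, 1.46 and 1.33 against 0.84, 1.41 and 1.46. Both lay below the array medians, with strains that overlapped. The 4 Ly49 probe sets that name more than 1 gene differed between strains by -0.21 to 0.01.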
